A study of Mus musculus with 4 samples.

Results

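The genes described here are 10 genes of the Hippo pathway and of its transcriptional output in cultured LL2 cells, which are a Lewis lung carcinoma line of the mouse: the angiomotins Amot, Amotl1 and Amotl2, the kinase gene Lats2, the LIM protein gene Ajuba, the coactivator genes Yap1 and Wwtr1, and the YAP target genes Cyr61, Ctgf and Ankrd1. They are 10 of the 54532 genes in the deposited count table, and all 10 were abundant enough to test, among 13922 genes that were. The set was chosen by measured values, because Amot was lower and Cyr61 higher under lactic acid than under PBS, so the differences of these 10 genes between the groups are given as a description, with no p-value. Cells of one group received lactic acid at 20 mM for 24 h, added to the culture medium. Control cells received the same volume of PBS, which is phosphate-buffered saline, for 24 h. There were 2 libraries of polyadenylated RNA per group, called biological replicates, with nothing to say whether these were separate cultures. The SE values come from a model of these libraries that shares variance across genes and includes counting noise. They may not include the spread between separate cultures. Both groups are the same line, with no genetic change named.

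The Hippo pathway is a kinase cascade that limits growth. The kinases MST1 and MST2 (genes Stk4 and Stk3), with the scaffold SAV1, activate LATS1 and LATS2, which phosphorylate the coactivators YAP and TAZ (gene Wwtr1) and keep them out of the nucleus. YAP and TAZ that escape this control bind TEAD transcription factors at DNA and turn on genes such as Cyr61, Ctgf and Ankrd1. Several pathway genes, Lats2 and Amotl2 among them, are targets of YAP themselves and form a negative feedback. Control of YAP acts largely on the protein, through phosphorylation and location, which RNA counts do not show.

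TEAD factors recognise the sequence CATTCC, or GGAATG on the other strand, and the promoters of the 10 genes were searched for it, since TEAD is the DNA-binding partner through which YAP reaches its targets. RefSeq promoters on GRCm38.p6, which run from 250 bases before the start of transcription to 50 after it, were at hand for 9 of the 10 genes, Ctgf being the other one. Of these 9 genes, 7 held the motif, where 16.6% of 27025 genes with a promoter in the same table did. Counted by window, the motif stood in 8 of 11 promoters of the members and in 14.7% of all 32851 promoters of that length. It was also counted in the lists of other genes taken up below. It stood in 7 of 17 genes of the serum response factor list and in 4 of 6 TEAD genes and cofactors. The signature had 3 of 11, the core kinases 2 of 5 and the genes restraining the kinases 2 of 6. Upstream activators had 1 of 14, polarity and junction genes 1 of 7, turnover genes 0 of 5 and CCN genes 0 of 1. The Cyr61 promoter has 1 match, 103 bases before the start, and the Ankrd1 promoter has 2, at 210 and 123 bases before it. They are shown whole, with the match in capitals, because these are the target genes with the higher level in lactic acid. The listed Amot promoter, shown for contrast, holds no match in this window. The Amot window lies inside the counted gene, whose 5′ end is at position 145505181, and that end was not searched. The 3 promoters are printed from 5′ to 3′ on the strand of the gene, which is the minus strand for these 3.
Cyr61, chr3:145649936-145650235: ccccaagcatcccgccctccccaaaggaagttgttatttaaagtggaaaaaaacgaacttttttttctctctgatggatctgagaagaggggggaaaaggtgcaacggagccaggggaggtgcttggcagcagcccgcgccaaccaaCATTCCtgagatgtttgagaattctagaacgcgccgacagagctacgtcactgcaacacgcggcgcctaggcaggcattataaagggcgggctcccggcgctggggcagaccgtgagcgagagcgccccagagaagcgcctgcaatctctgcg
Ankrd1, chr19:36119795-36120094: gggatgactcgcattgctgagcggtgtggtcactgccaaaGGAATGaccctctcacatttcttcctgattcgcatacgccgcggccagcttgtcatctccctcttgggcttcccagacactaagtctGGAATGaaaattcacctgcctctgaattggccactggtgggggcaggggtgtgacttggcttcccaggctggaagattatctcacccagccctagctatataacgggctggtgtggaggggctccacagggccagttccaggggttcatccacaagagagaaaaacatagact
Amot, chrX:145487590-145487889: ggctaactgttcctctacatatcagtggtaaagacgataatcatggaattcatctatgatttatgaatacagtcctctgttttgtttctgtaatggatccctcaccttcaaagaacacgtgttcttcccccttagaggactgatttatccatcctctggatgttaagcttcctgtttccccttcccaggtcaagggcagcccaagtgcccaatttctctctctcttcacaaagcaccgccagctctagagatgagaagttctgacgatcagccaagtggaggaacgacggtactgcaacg

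The other 5 genes with the motif are shown as windows of 30 bases around each match, again on the strand of the gene, so that the surroundings can be compared. The match lay 65 bases before the start in Amotl2, 141 in Yap1, at 186 and 164 in Ajuba, and 4 bases past 1 of the 2 listed starts in Lats2. Wwtr1 has 2 listed starts as well, and its match lay at position -136 relative to one and -170 relative to the other.
Amotl2, chr9:102717727-102717756: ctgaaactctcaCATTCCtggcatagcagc
Lats2, chr14:57746102-57746131: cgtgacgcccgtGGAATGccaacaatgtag
Ajuba, farther match, chr14:54577830-54577859: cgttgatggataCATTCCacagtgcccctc
Ajuba, nearer match, chr14:54577808-54577837: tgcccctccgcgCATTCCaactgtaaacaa
Yap1, chr9:8004720-8004749: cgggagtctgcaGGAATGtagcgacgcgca
Wwtr1, chr3:57576029-57576058: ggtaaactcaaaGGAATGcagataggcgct
Amotl1, like Amot, had no match in its listed promoter. That window (chr9:14614951-14615250) also lies inside the counted gene, whose 5′ end at position 14645056 was not searched. The same holds for 2 genes with a match. The listed promoter of Amotl2 and the 2 of Lats2 lie inside the counted genes, whose 5′ ends at positions 102716672 and 57758388 were not searched. The motif was thus found in genes that were higher under lactic acid (Cyr61, Ankrd1, Lats2, Wwtr1), in genes that were lower (Ajuba, Yap1) and in Amotl2, which lay at the same level in both groups. A match is a stretch of letters and says nothing of whether a TEAD factor was bound there in these cells. The CArG box, the site of the serum response factor SRF, was absent from all 11 promoters of the 9 genes and present in 1.81% of the 27025 genes. Only its exact form was searched, and only in these windows. In the list of SRF factors and targets taken up below, it stood in 6 of 17 genes. Its absence thus does not show that a gene lacks SRF sites.

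Counts per library summed to 15501006 and 16331584 under lactic acid and to 16164237 and 17409990 under PBS. Levels are given in CPM, counts relative to the library size after scaling. The scaling put the median of all 13922 log2 fold changes at 0.0073, so higher and lower are relative to the other genes. Of the 13922 genes tested, 49.0% were called at a Benjamini-Hochberg adjusted p below 0.05 in edgeR's quasi-likelihood test, 24.7% higher and 24.3% lower under lactic acid. The pair of treated libraries exceeded both PBS libraries in 36.9% of the genes and fell short of both in 35.5%. Against this background, 6 of the 10 members were called higher and 3 lower, and the same 6 and 3 had no overlap between the groups. These counts are a description, and nothing is read from them, because the set was picked from this contrast. The label of a lung carcinoma was checked on marker genes. The mesenchymal genes Vim, Fn1 and Cdh2 summed to 5337 and 5385 CPM under lactic acid and 5386 and 5396 CPM under PBS, but within this sum Vim was lower (log2 fold change -0.28) and Fn1 higher (0.60), both called by edgeR. The 5 epithelial markers summed to 153 and 153 CPM under lactic acid and to 221 and 214 CPM under PBS, almost all of it the keratins Krt8 and Krt18, while Epcam and Cdh1 had 0 to 2 counts a library. Within this sum Krt8 was lower (log2 fold change -1.14, called by edgeR), while Krt18 did not pass (-0.0035, edgeR adjusted p = 0.960). The lung markers Nkx2-1, Sftpc, Sftpb and Scgb1a1 summed to 0.445 and 0.363 CPM under lactic acid and to 0 and 0.350 CPM under PBS. Of the 6 leukocyte markers, 3 had 0 counts in all libraries, and the list summed to 8.58 and 10.2 CPM under lactic acid and to 6.49 and 6.24 CPM under PBS. Of the 2 that were tested, Cd68 was higher (log2 fold change 0.89, called by edgeR) and Lyz2 did not pass (-0.19). The 4 endothelial markers summed to 0.699 and 1.03 CPM under lactic acid and to 0.630 and 0.642 CPM under PBS. Of 5 fibroblast markers Lum was at 0, and the list, which was mostly Col3a1, summed to 451 and 434 CPM under lactic acid and to 1006 and 990 CPM under PBS. Pdgfra, another of these markers, was higher, at 29.5 and 29.0 CPM under lactic acid and 19.2 and 18.3 CPM under PBS (edgeR adjusted p = 4.74e-08). The part of these marker levels in the values of the members was not tested. In bulk RNA, fewer cells of a type and less RNA per cell cannot be told apart.

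**Figure D1:**
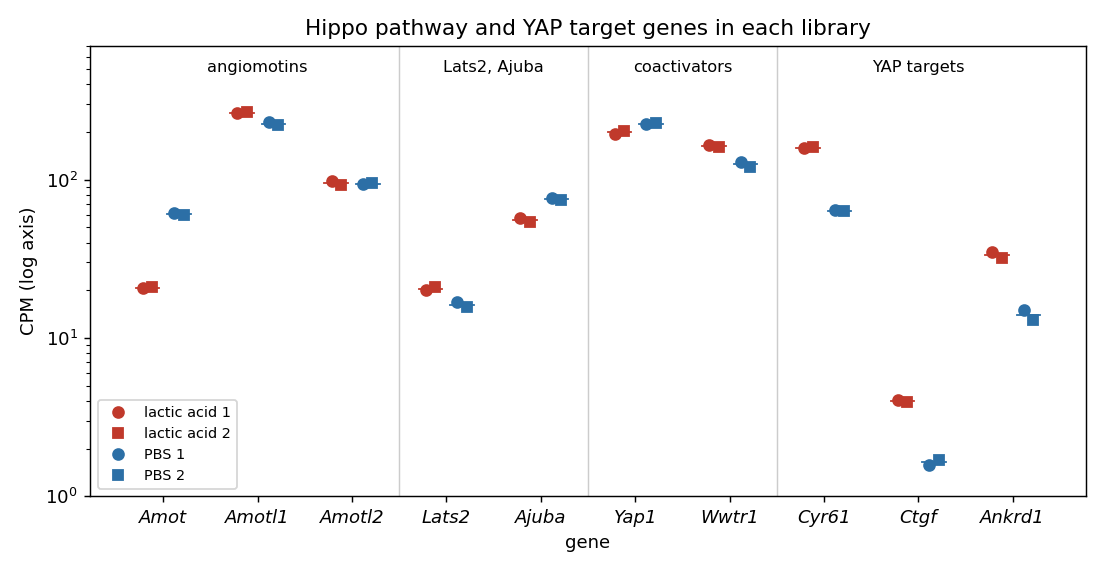
CPM of the 10 genes in each library on a log axis, under lactic acid libraries in red to the left of PBS libraries in blue, circles for replicate 1, squares for replicate 2 and a short line at the mean of the 2 libraries. Amot and Ajuba sit lower and Cyr61, Ctgf and Ankrd1 higher under lactic acid, while the Amotl2 libraries of both groups lie between 92.8 and 98.3 CPM.

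The angiomotins are scaffolds of cell junctions and of the actin cytoskeleton that bind YAP directly and assist LATS kinases, and their RNAs differed between the groups in 3 ways. Amot lies on chromosome X (145446425 to 145505181, minus strand, GRCm38) and had 20.8 and 20.8 CPM in the lactic acid libraries, against 61.5 and 59.6 CPM in the PBS libraries. These levels rest on 327 and 345 counts under lactic acid and on 976 and 1022 under PBS. The groups did not overlap, with means of 20.8 ± 0.0475 CPM under lactic acid and 60.6 ± 1.31 CPM under PBS (SD, n = 2 each), a log2 fold change of -1.54 (SE 0.08). In the order of log2 fold changes, Amot was number 89 from the lowest among the 13922 genes tested. Amotl1, on chromosome 9 (14541966 to 14645056, minus strand), had 264 and 267 CPM under lactic acid and 230 and 220 CPM under PBS. Both lactic acid libraries were above both PBS libraries, by a log2 fold change of 0.24 (SE 0.04). Amotl2, the angiomotin that is itself a YAP target, lies on the same chromosome (102716672 to 102733418, plus strand) and measured 98.3 and 92.8 CPM under lactic acid, against 93.4 and 94.8 CPM under PBS. Its groups overlapped, and the log2 fold change was 0.02 (SE 0.05).

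Levels of different genes are compared per gene length, in the FPKM of the authors. With lactic acid Amot stood at 2.45 and 2.46 FPKM, against 7.32 and 7.09 FPKM under PBS. It made up 5.58% and 5.67% of the summed FPKM of the 3 angiomotins under lactic acid, against 16.2% and 16.1% under PBS. The share of Amotl1 was 59.1% and 60.6% under lactic acid and 50.8% and 49.7% under PBS, and that of Amotl2 was 35.3% and 33.7% under lactic acid and 33.0% and 34.2% under PBS. Amot was the least abundant angiomotin per length in all 4 libraries, and Amotl1 the most abundant. The sum over the family was 43.9 and 43.4 FPKM under lactic acid and 45.0 and 44.0 FPKM under PBS, so that the total differed far less between the groups than the level of Amot did.

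**Figure D2:**
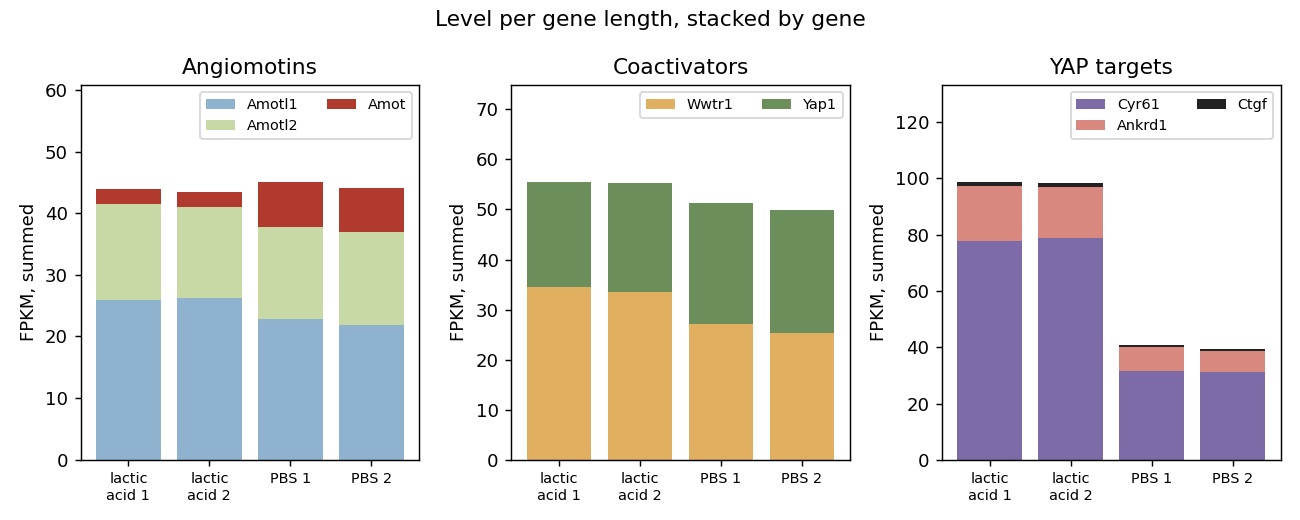
FPKM of the authors, stacked by gene, in each library (lactic acid 1 and 2, then PBS 1 and 2) for the 3 angiomotins, the 2 coactivators and 3 YAP targets. The Amot segment shrinks to 2.45 and 2.46 FPKM under lactic acid, against 7.32 and 7.09 FPKM under PBS, while the height of the angiomotin bars stays between 43.4 and 45.0 FPKM.

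Lats2 encodes a kinase that phosphorylates YAP and TAZ, and Ajuba encodes a LIM protein that binds LATS kinases and restrains them. Lats2, on chromosome 14 (57689662 to 57758388, minus strand), measured 20.0 and 20.8 CPM under lactic acid, against 16.9 and 15.6 CPM under PBS, a log2 fold change of 0.33 (SE 0.11). Both lactic acid libraries were above both PBS libraries. Lats2 is counted above among the genes called higher, and was not so called without lactic acid replicate 2 (log2 fold change 0.30) or without PBS replicate 2 (0.27). An annotated partner on the same strand, Gm49361, shares sequence with Lats2 and had 0 counts. How reads in the shared stretch were counted is not given. The level of Lats2 per length may thus be too low when set beside other genes. Ajuba, on the same chromosome (54567472 to 54577558, minus strand), went the other way, with 56.9 and 54.3 CPM in the lactic acid libraries and 77.0 and 74.7 CPM in the PBS libraries. Its groups did not overlap, and the log2 fold change was -0.45 (SE 0.06).

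Yap1 and Wwtr1 encode the paralogous coactivators YAP and TAZ, and the balance between their RNAs differed between the groups. Yap1, on chromosome 9 (7931999 to 8004596, minus strand), measured 195 and 203 CPM under lactic acid and 225 and 227 CPM under PBS. Wwtr1, on chromosome 3 (57455649 to 57575910, minus strand), measured 167 and 161 CPM under lactic acid and 129 and 121 CPM under PBS. Neither gene overlapped between the groups: Yap1 was lower under lactic acid by a log2 fold change of -0.18 (SE 0.04), and Wwtr1 was higher by 0.39 (SE 0.04). Per length, Yap1 had 0.603 and 0.651 times the FPKM of Wwtr1 in the lactic acid libraries, against 0.897 and 0.969 times in the PBS libraries. Wwtr1 was thus the more abundant of the pair per length in all 4 libraries, by a wider margin under lactic acid. Their summed FPKM was 55.5 and 55.2 under lactic acid and 51.3 and 49.9 under PBS.

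Cyr61, Ctgf and Ankrd1 are the genes most often read as YAP output, and all 3 were higher under lactic acid by similar factors at very different levels. Cyr61, which encodes the secreted matricellular protein CCN1, lies on chromosome 3 (145646976 to 145649981, minus strand) and measured 159 and 161 CPM under lactic acid, against 64.0 and 63.1 CPM under PBS. The mean was 160 ± 1.54 CPM under lactic acid and 63.6 ± 0.617 CPM under PBS (SD, n = 2 each), 2.51-fold higher, with a log2 fold change of 1.33 (SE 0.05). It was number 386 from the highest among the 13922 log2 fold changes.

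Ctgf, which encodes the related protein CCN2, lies on chromosome 10 (24595442 to 24598683, plus strand) and measured 4.07 and 3.93 CPM under lactic acid, against 1.58 and 1.69 CPM under PBS. These values rest on only 64 and 65 counts under lactic acid and on 25 and 29 counts under PBS, which shows in the error of its log2 fold change of 1.29 (SE 0.29). Ankrd1, which encodes an ankyrin repeat protein, lies on chromosome 19 (36111965 to 36119844, minus strand) and measured 34.7 and 32.1 CPM under lactic acid, against 15.1 and 13.0 CPM under PBS. Its log2 fold change was 1.25 (SE 0.10). The lactic acid libraries lay above the PBS libraries for all 3 genes, with no overlap. The ratio of Cyr61 to Ctgf FPKM was 55.2 and 58.0 under lactic acid and 57.6 and 52.9 under PBS, overlapping between the groups.

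Ranked by FPKM, Cyr61 was the most abundant of the 10 genes and Ctgf the least abundant in all 4 libraries. With lactic acid the order was Cyr61 (77.8 and 78.9 FPKM), Wwtr1 (34.6 and 33.5), Amotl1 (26.0 and 26.3), Yap1 (20.9 and 21.8), Ankrd1 (19.5 and 18.1), Ajuba (15.5 and 14.8) and Amotl2 (15.5 and 14.6), then Lats2 (2.85 and 2.96), Amot (2.45 and 2.46) and Ctgf (1.41 and 1.36). Ajuba and Amotl2 could not be ordered, since their libraries overlapped. With PBS the order was Cyr61 (31.7 and 31.2 FPKM), Wwtr1 (27.1 and 25.3), Yap1 (24.3 and 24.6), Amotl1 (22.9 and 21.9), Ajuba (21.1 and 20.5) and Amotl2 (14.9 and 15.1), then Ankrd1 (8.53 and 7.37), Amot (7.32 and 7.09), Lats2 (2.42 and 2.23) and Ctgf (0.551 and 0.591). Ankrd1 thus stood above Ajuba and Amotl2 under lactic acid and below them under PBS, and Amot stood below Lats2 under lactic acid and above it under PBS.

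The rest of the pathway was read from lists of other genes, with the members left out of every count. Of 60 such genes in 6 lists, 52 were tested, and edgeR's quasi-likelihood test called 17 higher and 18 lower under lactic acid, against 24.7% and 24.3% of all genes tested. Their median log2 fold change was 0.0026, against 0.0073 for all genes. The same shares and median over all genes are the background of each list that follows. Within the core kinase cassette, 1 of 6 genes was higher and 4 were lower (median log2 fold change -0.18). Sav1, the scaffold of the cascade, had 103 and 110 CPM under lactic acid, against 128 and 131 CPM under PBS, a log2 fold change of -0.28 (SE 0.04, edgeR adjusted p = 1.31e-07). Mob1b, a coactivator of LATS kinases, was lower as well (-0.27, edgeR adjusted p = 5.50e-05), while its paralogue Mob1a measured 319 and 315 CPM under lactic acid and 323 and 313 CPM under PBS and did not pass (-0.01, edgeR adjusted p = 0.910).

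Lats1, the paralogue of Lats2, had 95.6 and 92.4 CPM under lactic acid and 104 and 111 CPM under PBS (log2 fold change -0.19, edgeR adjusted p = 3.37e-04). Lats2 thus had 0.219 and 0.236 times the FPKM of Lats1 under lactic acid, against 0.170 and 0.147 times under PBS, and Lats1 was the more abundant kinase gene in all 4 libraries. The upstream kinases moved in opposite directions, Stk3 higher (0.20, edgeR adjusted p = 0.0168) and Stk4 lower (-0.17, edgeR adjusted p = 0.00751). Neither call held throughout: Stk3 did not pass without lactic acid replicate 2 (edgeR adjusted p = 0.250) or without PBS replicate 2 (0.0887), and Stk4 did not pass without lactic acid replicate 1 (0.186). With all 4 libraries Stk3 did not pass in DESeq2 (adjusted p = 0.158) or in limma (0.0999), nor did Stk4 (0.0808 in DESeq2 and 0.0565 in limma).

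Among 15 tested genes of upstream activators, 6 were higher and 3 lower (median log2 fold change 0.0067). Map4k5, a kinase that can activate LATS beside MST1 and MST2, rose to 134 and 133 CPM under lactic acid, against 99.6 and 102 CPM under PBS (log2 fold change 0.40, SE 0.04, edgeR adjusted p = 4.86e-12). Its relative Mink1 rose by 0.22 (edgeR adjusted p = 2.48e-06) and Map4k3, another relative, was lower (-0.21, edgeR adjusted p = 0.0169). Taok2, a kinase upstream of MST1 and MST2, fell by 0.23 on the log2 scale, as did Rassf1, which binds the MST kinases, by 0.33. Nf2, which encodes the junctional protein merlin, was 1.07-fold higher at 177 and 176 CPM under lactic acid and 164 and 165 CPM under PBS (edgeR adjusted p = 0.0197). The Nf2 call did not pass when any 1 library was left out (edgeR adjusted p = 0.0602 to 0.106). Map4k3 did not pass without lactic acid replicate 2 (0.170) or PBS replicate 1 (0.314), nor did Rassf1 without PBS replicate 2 (0.0609). The number of activators called higher was 3 without lactic acid replicate 2 and also without PBS replicate 1.

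The list of proteins that restrain the kinases, the STRIPAK phosphatase complex and the LIM proteins related to Ajuba, held 1 higher and 3 lower of 7 tested genes (median log2 fold change -0.02). Strn, which encodes the STRIPAK scaffold striatin, measured 67.2 and 66.6 CPM under lactic acid and 101 and 92.3 CPM under PBS (log2 fold change -0.53, SE 0.05, edgeR adjusted p = 6.36e-13). Its paralogue Strn4 fell by 0.25 and Sike1, another subunit, rose by 0.26 on the log2 scale. The Sike1 call did not pass in limma (adjusted p = 0.0728). Slmap was lower by a small amount (-0.10, edgeR adjusted p = 0.0320), a call that did not pass without lactic acid replicate 2 (0.208), PBS replicate 1 (0.0888) or PBS replicate 2 (0.0628).

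Genes of cell polarity and junctions, which feed cell contact into the pathway, were lower in 6 and higher in 2 of 9 tested cases, with a median log2 fold change of -0.20, against 24.3% lower, 24.7% higher and a median of 0.0073 over all genes. Tjp1, which encodes the tight junction scaffold ZO-1, had 223 and 237 CPM under lactic acid and 336 and 340 CPM under PBS (log2 fold change -0.55, SE 0.03, edgeR adjusted p = 6.86e-21). Dlg5 fell by 0.39 and Pard3, a polarity scaffold, by 0.22 on that scale. Mpp5, which encodes the Crumbs partner PALS1, rose 1.61-fold to 63.5 and 66.4 CPM under lactic acid, against 40.7 and 39.9 CPM under PBS (edgeR adjusted p = 7.46e-14), and Dlg1 rose 1.29-fold.

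Of 10 genes that act on the stability of YAP, TAZ or angiomotins, 4 were higher and 2 lower (median log2 fold change 0.05). Csnk1e, a casein kinase that can prime YAP for degradation after LATS, rose to 99.6 and 100.5 CPM under lactic acid, against 48.5 and 56.3 CPM under PBS (1.91-fold, log2 fold change 0.93, SE 0.06, edgeR adjusted p = 1.69e-20). Btrc, the F-box protein that then recognises YAP, rose 1.25-fold, but did not pass in limma (adjusted p = 0.101). Tnks, a tankyrase that marks angiomotins for destruction, rose 1.10-fold, but did not pass without lactic acid replicate 2 (edgeR adjusted p = 0.0750). Of the ubiquitin ligases of the NEDD4 family, Itch fell by 0.25 on the log2 scale. Nedd4 was also lower, by a small amount (-0.07, edgeR adjusted p = 8.65e-04). Nedd4l rose by 0.15, a call lost without lactic acid replicate 2 (log2 fold change 0.10) and without PBS replicate 2 (0.11).

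Among TEAD factors and their VGLL cofactors, 3 of the 5 tested genes were higher and none was lower (median log2 fold change 0.48). Tead2 measured 104 and 104 CPM under lactic acid and 73.8 and 76.1 CPM under PBS (log2 fold change 0.48, SE 0.05, edgeR adjusted p = 1.07e-12). Tead3 rose 1.53-fold at a lower level, 17.3 and 19.8 CPM under lactic acid and 12.1 and 12.2 CPM under PBS. The most abundant TEAD gene per length, Tead1, averaged 24.0 FPKM under lactic acid and 23.7 FPKM under PBS and did not pass (log2 fold change 0.03, edgeR adjusted p = 0.439), nor did Tead4 (0.12, edgeR adjusted p = 0.167). Vgll4, a cofactor that competes with YAP for TEAD, rose 1.43-fold (34.1 and 28.4 CPM under lactic acid, 21.4 and 22.3 CPM under PBS). Vgll1, Vgll2 and Vgll3 had 0 counts in all 4 libraries.

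**Figure D3:**
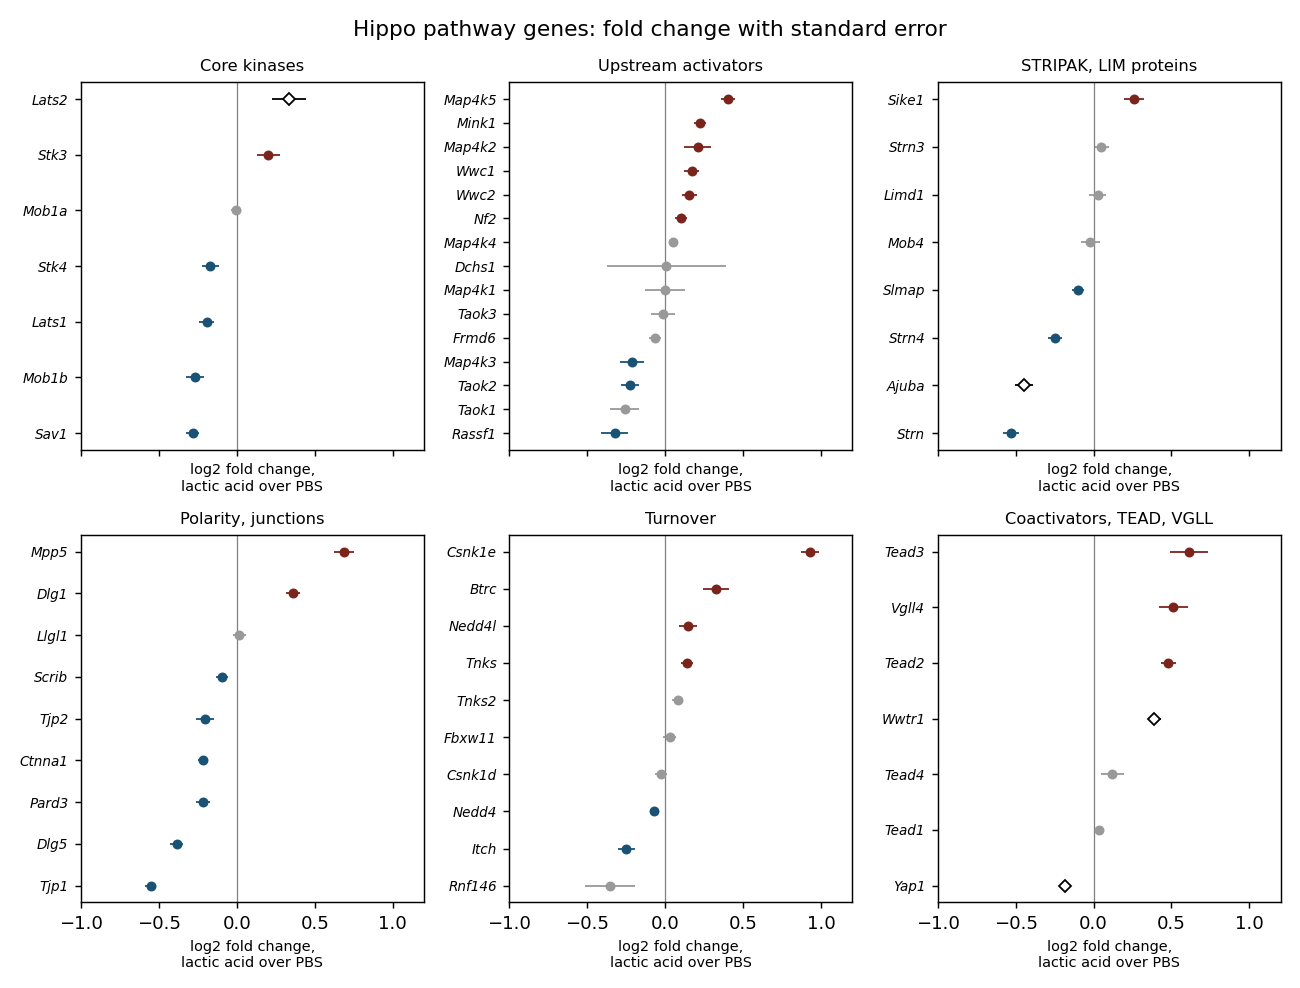
Log2 fold change of lactic acid over PBS with its standard error for the tested genes of 6 pathway lists, in red where called higher, blue where called lower and grey where the edgeR test did not pass; open diamonds are the members, shown without a call. Among the coactivators, TEAD and VGLL genes Yap1 alone is below 0, and Csnk1e at 0.93 is the farthest to the right.

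The output of YAP and TAZ was followed in a published signature of 22 target genes, 5 of which are members (Amotl2, Lats2, Ctgf, Cyr61, Ankrd1) and left out of the count. Of the 17 others 15 were tested, and 12 were called higher and 2 lower under lactic acid in edgeR's quasi-likelihood test, against 24.7% and 24.3% of all genes. The median log2 fold change of these 15 was 0.37, against 0.0073 over all genes tested. The lactic acid libraries lay above the PBS libraries in 12 of these genes and below them in 2, against 36.9% and 35.5% of all genes. The gene with the highest fold change was Nt5e, which encodes the ectoenzyme CD73 that makes adenosine, at 12.5 and 10.2 CPM under lactic acid and 0.882 and 1.63 CPM under PBS (8.84-fold, log2 fold change 3.14, SE 0.23, edgeR adjusted p = 1.24e-17). It rests on 196 and 168 counts under lactic acid and on 14 and 28 counts under PBS.

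Gadd45a, a stress-induced growth arrest gene that is also a target of p53, measured 12.0 and 14.1 CPM under lactic acid and 4.85 and 4.38 CPM under PBS (2.84-fold, edgeR adjusted p = 1.40e-11). The transcript E230016M11Rik overlaps it on the other strand with 31.1% as many counts, and without strand their reads were not separable. Crim1, a membrane protein that binds growth factors, rose to 160 and 157 CPM under lactic acid, against 101 and 105 CPM under PBS (1.54-fold, edgeR adjusted p = 8.37e-20), and overlaps Fez2 on the other strand, which has 58.9% as many counts. Tgfb2, a ligand of the TGF-beta family, rose 1.94-fold (4.13 and 5.14 CPM under lactic acid, 2.39 and 2.39 CPM under PBS), and Fjx1, a secreted regulator known from fly Hippo signalling through its homologue four-jointed, rose 1.68-fold. The others called higher were Nuak2, Ptpn14, Myof, F3, Axl, Foxf2 and Dock5, with log2 fold changes between 0.12 and 0.51. The 2 called lower, named after their values were seen, were Asap1 (-0.31) and Arhgef17 (-0.14), and Rbms3 did not pass. Without lactic acid replicate 1 the signature had 8 genes called higher and 1 lower. DESeq2 called 8 higher and 1 lower, and limma 9 and 1. The list runs over genes that other pathways drive as well. The TEAD motif stood in 3 of the 11 signature genes outside the members with a promoter in the table: Axl, Crim1 and Ptpn14.

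Cyr61 and Ctgf belong to the CCN family of secreted matricellular proteins, and of the 3 relatives tested 2 were lower and 1 did not pass, with a median log2 fold change of -0.88. Wisp1 (CCN4), a target of Wnt signalling, fell to 7.37 and 6.83 CPM under lactic acid, against 20.9 and 21.4 CPM under PBS (log2 fold change -1.58, SE 0.13, edgeR adjusted p = 6.68e-16). Nov (CCN3) measured 6.04 and 6.40 CPM under lactic acid and 12.4 and 10.6 CPM under PBS (log2 fold change -0.88, SE 0.16, edgeR adjusted p = 4.38e-06). Wisp2 had 4 and 3 counts under lactic acid and 9 and 10 under PBS, too few to test. Wisp3, with 12 to 20 counts a library, measured 0.953 and 1.21 CPM under lactic acid and 0.756 and 0.700 CPM under PBS, and did not pass (log2 fold change 0.57, edgeR adjusted p = 0.353).

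Cyr61, Ctgf and Ankrd1 are also targets of SRF and its actin-regulated coactivators MRTF-A and MRTF-B (genes Mkl1 and Mkl2), so 20 genes of that axis were examined. Of the 16 tested, 8 were higher and 3 lower, against 24.7% and 24.3% of all genes, with a median log2 fold change of 0.05, against 0.0073. The number lower was 5 without lactic acid replicate 2 and also without PBS replicate 2. Srf fell by 0.18 on the log2 scale (95.0 and 92.3 CPM under lactic acid, 103 and 109 CPM under PBS), Mkl2 fell by 0.39, and Mkl1 rose by 0.28, though Sgsm3 overlaps Mkl1 on the other strand with 49.5% as many counts. Acta2, smooth muscle actin, rose 3.70-fold, to 25.0 and 24.8 CPM under lactic acid, against 6.49 and 6.94 CPM under PBS (edgeR adjusted p = 1.07e-19). Tagln2, Tpm4 and Cald1, abundant actin-binding genes, rose 1.53-fold, 1.49-fold and 1.48-fold. Zyx, which encodes the focal adhesion protein zyxin, fell by 0.39 on the log2 scale. Vcl and Cnn2, other SRF targets, did not pass, and Tagln, Cnn1, Myl9 and Actg2 were too low to test.

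**Figure D4:**
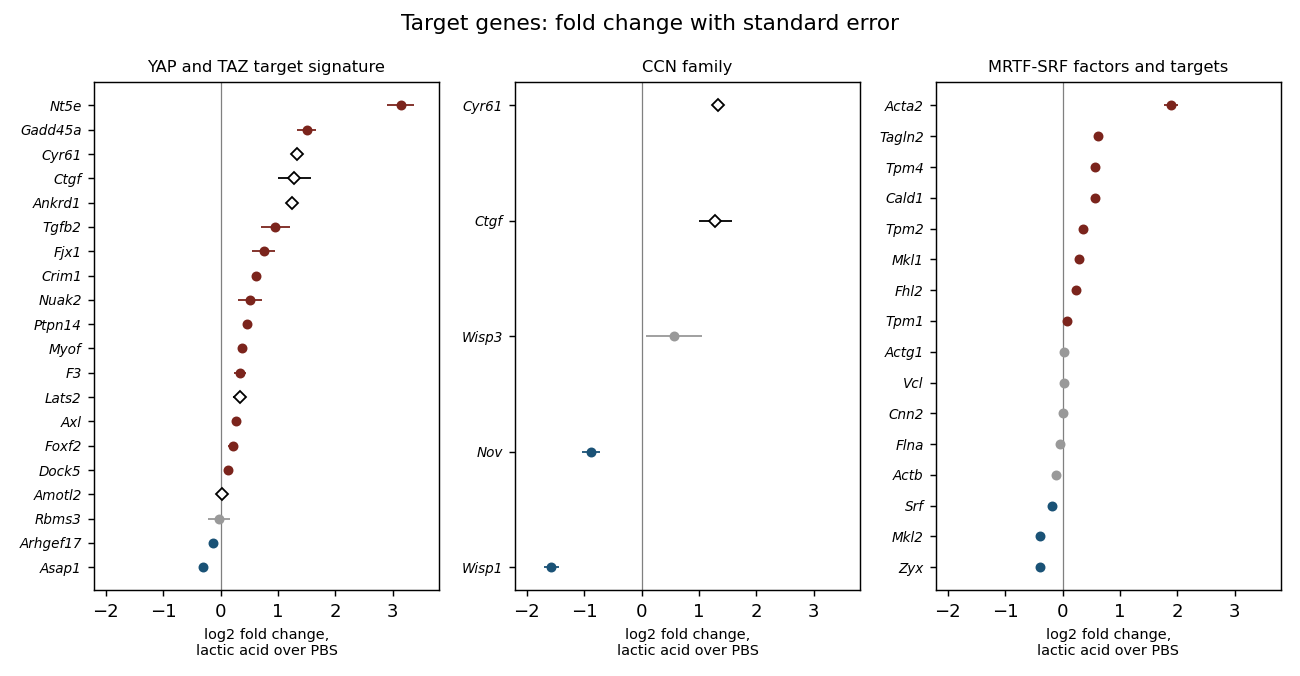
Log2 fold change of lactic acid over PBS with its standard error for the tested genes of the YAP and TAZ signature, the CCN family and the MRTF-SRF list, coloured as called higher (red), called lower (blue) or not passed (grey), with members as open diamonds without a call. In the signature Nt5e stands farthest right at 3.14 and Asap1 farthest left at -0.31, while in the CCN family Cyr61 and Ctgf are to the right of 0 and Nov and Wisp1 to its left.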

How the data were processed

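Poly(A)-selected RNA of LL2 cells was sequenced in 4 libraries, 2 per group, as read pairs of 150 bases from NEBNext Ultra libraries, per the labels' protocols. That kit keeps no strand information. The authors deposited whole-number read counts per gene, with no scaling, and FPKM for the same genes. The submitters' processing notes name HISAT2 2.0.5, featureCounts 1.5.0-p3, StringTie 1.3.3b, DESeq2 1.16.1 and GRCm38.p6 with no role or order. The handling of strand, of multi-mapped reads and of overlapping genes is not given in the sources used here. Within a library the deposited FPKM are the counts per gene length times 1 constant.

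Counts were analysed in edgeR 4.0.16 (R 4.3.3). filterByExpr (minimum count 10, total 15) kept 13922 of 54532 genes, and library sizes were scaled by TMM. A robust quasi-likelihood model with the group as its term was fitted to all 4 libraries, and lactic acid was compared with PBS, two-sided. Its p-values were adjusted by the Benjamini-Hochberg method across the whole filtered table, and 0.05 was the threshold. The SE is the log2 fold change divided by the square root of F. For 1 gene by itself, exact permutation of 2 against 2 libraries has 0.333 as its smallest p. The procedure was tested on simulated counts. Replicates of a group differed by more than sampling noise (chi-square per degree of freedom 2.83 with lactic acid and 2.35 with PBS). At this depth 3 counts are 0.175 to 0.191 CPM, for counting error only.

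The members and lists were chosen with earlier results of these data known. The text names the members, fixed core genes and up to 5 called genes per list with the largest absolute log2 fold change. The other signature genes, Nedd4, Wisp3, Vgll1, Vgll2, Vcl, Cnn2 and the untested SRF targets were named after their values were seen. Alternatives were other size factors, no filter or a filter at 10 CPM, DESeq2 1.42.0, limma 3.58.1 on log2(FPKM + 1), no robust settings, a replicate block, and each library left out. Overlaps and copies (blastn 2.17.0, 98% identity over 300 bases) come from GENCODE M21 on GRCm38.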

Additional observations from a re-analysis of the deposited data

How the results depend on the processing

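The direction of the 9 members called by edgeR was the same under all 11 alternatives that could be run for them (Ctgf was left out by the filter at 10 CPM). Their libraries did not overlap between the groups, and the set was picked from this contrast. The alternatives could thus hardly reverse a direction, and nothing is read from its staying the same. Lats2 was not called by DESeq2, by limma on log2(FPKM + 1), without lactic acid replicate 2 or without PBS replicate 2. Limma on log2(FPKM + 1), where the pseudocount shrinks low genes, put the log2 fold change at -1.25 for Amot, 0.60 for Ctgf and 1.29 for Cyr61. The DESeq2 Wald test called 2251 of all genes higher, against 3445 in edgeR. Of the pathway genes outside the members, 10 were called higher by DESeq2 and 8 by limma, against 17. Of the targets and CCN genes outside the members, 7 were called higher at a mean of 10 CPM or more, where fewer genes are tested, against 12. The number of MRTF-SRF genes called lower, 3, was 4 to 5 when 1 library was left out. The sign of the small Mob1a, Tead1 and Amotl2 values was not fixed: Mob1a had 0.0203 at a mean of 10 CPM or more and -0.0354 to 0.0137 without 1 library, Tead1 -0.00583 to 0.0677 and Amotl2 -0.0217 to 0.0623. The cause was not tested. The replicate numbers share no origin in the labels, and deviations of same-numbered libraries correlated at 0.0053. A fit with the replicate block called 3459 genes higher and 3393 lower. In small lists, DESeq2 and limma called 2 activators higher each (6 in edgeR) and no core kinase gene higher (1 in edgeR), limma called 2 core genes lower (4 in edgeR, with Mob1b at an adjusted p of 0.0649 in limma), and of the turnover genes 2 and 1 (4 in edgeR). Nf2, Map4k3, Slmap, Nedd4l and Tnks, all called by edgeR, passed in neither DESeq2 nor limma. Low counts limit the precision of Ctgf, Tgfb2 and Fjx1, and Wisp2 was too low to test. Nt5e had low counts under PBS, and its log2 fold change ran from 1.00 to 3.66 over the 10 alternatives that could be run for it.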
